A study of Homo sapiens with 7 samples.

Results

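The keratin family was represented by 46 genes among the 18646 genes that the platform annotation names by a single symbol. Of these, 27 were type I and 19 were type II keratins. All genes whose symbol is KRT, a number and at most 1 letter from A to C were taken, so that keratin-associated proteins and keratin pseudogenes were left out. The 46 genes were read by 55 probes, and 39 of them by a single probe. KRT6A, KRT6B, KRT17, KRT39, KRT78, KRT81, KRT82, KRT84 and KRT86 were not analysed here.

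RNA of 4 established colorectal cancer cell lines was measured on 7 arrays that read 2 dyes each. On 6 arrays, RNA of DLD1, HT29 or RKO cells with a short hairpin RNA (shRNA) against the maintenance DNA methyltransferase DNMT1 was set against the same line with a non-silencing control, once with shRNA 49 and once with shRNA 51 in each line. The remaining array compared HCT116 cells carrying an shRNA against UHRF1, which recruits DNMT1 during DNA replication, with their own control, and its label states a knockdown efficiency of 60%. Knockdown RNA was labelled with Cy3 for shRNA 49 and with Cy5 in all other cases, so shRNA and dye orientation cannot be told apart. The labels do not say whether the cells were clones or pools, whether the arrays of a line shared a control RNA, or whether they came from separate cultures. The p-values therefore reflect only how far these arrays differ among themselves, and that difference may be technical.

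Keratins are the intermediate filament proteins of epithelial cells. Each filament is built from an acidic type I chain and a basic or neutral type II chain, and the pair in use changes with the tissue: KRT8 and KRT18 in simple epithelia such as the colon, KRT5 and KRT14 in the basal layer of stratified epithelia, KRT1 and KRT10 above it, and a separate set in hair. Colonic epithelium also carries KRT19 and KRT20, whereas KRT7 belongs to other simple epithelia, and the combination of absent KRT7 with present KRT20 is widely used by pathologists to recognise colorectal carcinoma. The type II genes lie together on chromosome 12, next to KRT18, and the other type I genes lie together on chromosome 17.

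All values below are log2 ratios of knockdown over control, averaged over the probes of a gene. The direction is likely rather than settled: the labels do not give it, and it was read from DNMT1, which lay below 0 on all 6 DNMT1 arrays (-3.27 to -0.92). For the HCT116 array the basis was 4 UHRF1 probes, which disagreed (-3.10, -2.06, -0.18 and 0.68). The ratios carry no level, so whether KRT7 or any other epithelial marker was present in the control cells could not be read. On each array between 34.0% and 44.0% of all ratios were exactly equal to that of another probe, which is called a shared ratio below, and of the 364 keratin ratios 181 (49.7%) were. What shared ratios stand for was not tested. A gene was tested with limma when at least 5 of the 6 DNMT1 arrays held a ratio, which 43 of the 46 keratins did. KRT2, KRT72 and KRT222 did not, and 36 keratins had a ratio on all 6 arrays. Of the other 7 tested, KRT1, KRT27, KRT34 and KRT40 lacked the RKO array and KRT26, KRT28 and KRT73 the HT29 array with shRNA 51. Their fitted means rest on 5 arrays and make up for the missing one through the shRNA term, so they can lie away from the plain mean of the ratios.

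**Figure D1:**
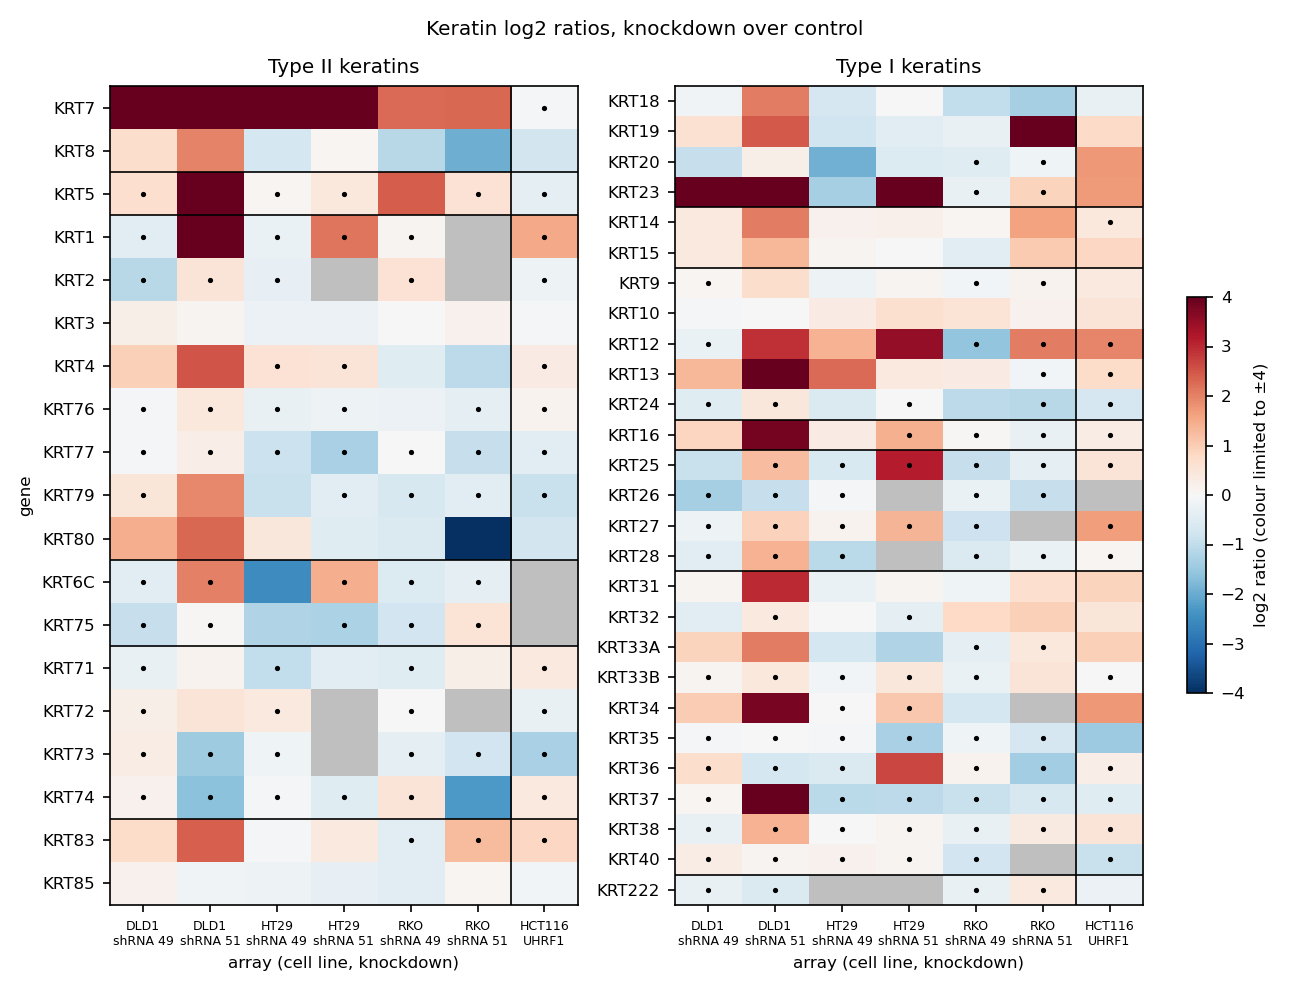
Log2 ratio (colour, limited to ±4) of each keratin gene (rows) on each array (columns), type II on the left and type I on the right, with horizontal lines between the groups named in the text (from the top: simple epithelial, basal, suprabasal and tissue-restricted, wound, inner root sheath, hair cortex and cuticle and, for type I only, KRT222). Grey cells hold no ratio and dots mark genes with shared ratios alone. KRT7 is high on all 6 DNMT1 arrays, and the column for DLD1 with shRNA 51 holds 24 genes at least 2-fold higher.

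Over all 3 lines with DNMT1 knockdown, KRT7 was the 1 keratin called higher. It stood at 4.72 in DLD1 cells with shRNA 49 and 6.30 with shRNA 51. The HT29 ratios were 4.49 and 5.63, and the RKO ratios 2.27 and 2.30. All 6 ratios were well above 0 and none was shared with another probe, but they came from a single probe, without a second one to compare. As linear ratios they were 26.4-fold and 78.9-fold for DLD1, 22.5-fold and 49.6-fold for HT29, and 4.82-fold and 4.91-fold for RKO. The mean was 4.29 ± 0.58 (SE of the fit, n = 6), or 19.5-fold, with an adjusted p of 0.0482 by limma. With UHRF1 knockdown KRT7 stood at -0.07, a shared ratio at percentile 37.9 of all genes. That array was of another line and another target, so the values are given side by side without a test.

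Of all 17623 genes tested, 0.38% were called higher and 0.017% lower, while among the 43 keratins 1 was called higher and 0 lower, with 7 higher (7.2% of all genes) and 3 lower (4.18%) at an unadjusted p under 0.05. At least 2-fold higher in the all-lines mean were 8 keratins (18.6%, against 3.88% of all genes), and 0 were at least 2-fold lower (against 0.477%). Without DLD1 with shRNA 51, the means of KRT1 (0.99), KRT5 (0.76), KRT13 (0.72), KRT16 (0.49) and KRT34 (0.60) fell below 2-fold. Those of KRT7 (3.92), KRT12 (1.32) and KRT23 (2.07) did not. The call of KRT7 lay close to the threshold. It was kept under 7 of 18 alternative settings and lost under 11, among them the fit without the shRNA covariate (adjusted p = 0.0700) and leaving out DLD1 with shRNA 49 (0.204), HT29 with shRNA 49 (0.250), HT29 with shRNA 51 (0.0638) or RKO with shRNA 49 (0.207), whereas the mean stayed between 3.83 and 4.80. The KRT7 mean of DLD1 was 5.51 ± 0.34 (adjusted p = 0.0666), that of HT29 5.06 ± 0.34 (adjusted p = 0.0659) and that of RKO 2.28 ± 0.34 (adjusted p = 0.183). Each is over 2 arrays, with the SE from a spread shared by the lines in limma. Both DLD1 arrays and both HT29 arrays lay above both RKO arrays. The differences of 3.23 ± 0.48 (DLD1 minus RKO, adjusted p = 0.710) and 2.78 ± 0.48 (HT29 minus RKO, adjusted p = 0.696) did not pass.

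**Figure D2:**
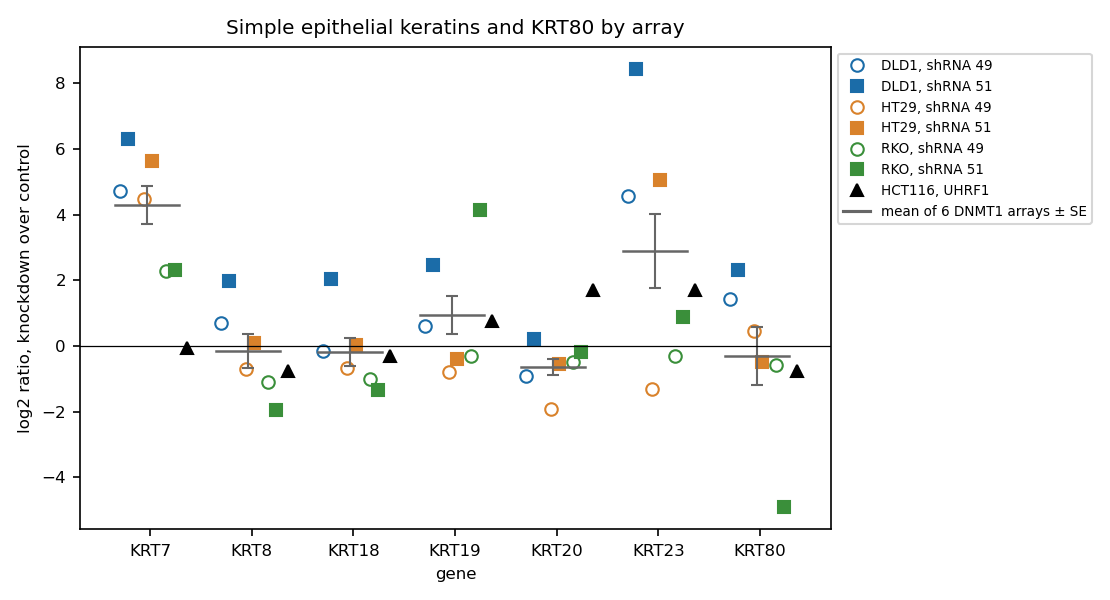
Log2 ratio, knockdown over control (vertical axis), of the 6 simple epithelial keratins and of KRT80 on each array; open circles are shRNA 49, filled squares shRNA 51, triangles the UHRF1 array, and grey lines the mean of the 6 DNMT1 arrays with its SE. KRT7 lies between 2.27 and 6.30 on the DNMT1 arrays and at -0.07 on the UHRF1 array, while the other genes spread on both sides of 0.

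KRT8 and KRT18, which pair with each other in the filaments of simple epithelia, passed no test and lay on both sides of 0. The DLD1 ratios of KRT8 were 0.69 and 1.99, those of HT29 -0.69 and 0.08, and those of RKO -1.10 and -1.95 (shRNA 49 first in each pair, here and below). For KRT18 the same pairs were -0.15 and 2.04, -0.68 and 0.02, and -1.0 and -1.33. For both genes the highest array was DLD1 with shRNA 51 and the lowest was RKO with shRNA 51, so their means over the lines were near 0 (-0.16 ± 0.51 with adjusted p = 0.934, and -0.18 ± 0.42 with adjusted p = 0.906). The probes of KRT8 lay within 0.53 of each other on every DNMT1 array, and those of KRT18 within 1.01. The difference of DLD1 minus RKO was 2.86 ± 0.60 for KRT8 (adjusted p = 0.710) and 2.11 ± 0.66 for KRT18 (adjusted p = 0.726). With UHRF1 knockdown KRT8 stood at -0.75 and KRT18 at -0.31. Processed pseudogenes resemble both genes, and whether the probes also read their transcripts was not tested.

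KRT23, a type I keratin described in colon and pancreatic cancer cells, had the widest range of the family. Its DLD1 ratios were 4.56 and 8.44, or 23.6-fold and 346-fold. The HT29 ratios were -1.32 and 5.06, and the RKO ratios -0.31 and 0.89. Both DLD1 arrays were far above 0, the HT29 arrays lay on opposite sides of 0, and both RKO ratios were shared. The mean of 2.89 ± 1.12 had an adjusted p of 0.402, and the DLD1 mean of 6.5 ± 0.87 had an adjusted p of 0.232. With UHRF1 knockdown KRT23 stood at 1.71.

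KRT19, which has no tail domain and is common to simple epithelia, had DLD1 ratios of 0.60 and 2.46, HT29 ratios of -0.80 and -0.41, and RKO ratios of -0.31 and 4.13. The ratio in RKO with shRNA 51 was the highest keratin ratio on that array. Both DLD1 arrays lay above 0 and both HT29 arrays below it, and the mean was 0.94 ± 0.58 (adjusted p = 0.596), with 0.76 for UHRF1. KRT20, the keratin of differentiated intestinal epithelium, was mostly below 0, with DLD1 ratios of -0.91 and 0.22, HT29 ratios of -1.93 and -0.54, and RKO ratios of -0.48 and -0.18 that were both shared, and a mean of -0.64 ± 0.23 (adjusted p = 0.369). Under UHRF1 knockdown it stood at 1.72, percentile 98.5 of all genes. KRT80, a type II keratin found widely in epithelia, held the lowest keratin ratio on the arrays, -4.91 in RKO with shRNA 51. Its DLD1 ratios were 1.44 and 2.31, those of HT29 0.45 and -0.48, that of RKO with shRNA 49 -0.59 and that of the UHRF1 array -0.75. Both of its probes were low in RKO with shRNA 51 (-5.11 and -4.71). The difference of DLD1 minus RKO was 4.63 ± 1.25 (adjusted p = 0.710).

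In DLD1 cells many keratins stood high together. Of the 43 tested keratins, 18 (41.9%) had a DLD1 mean at least 2-fold higher, against 6.49% of all genes, and 1 (2.33%) was at least 2-fold lower, against 1.7% of all genes. By limma with adjustment over all genes 0 keratins were called in DLD1 (0.0227% of all genes were called higher and 0.0% lower), and at an unadjusted p under 0.05, 16 keratins lay higher (6.29% of all genes) and 1, KRT26, lower (2.51%). The group of 18 spans keratins of unlike tissues. KRT7, KRT8, KRT19 and KRT23 belong to simple epithelia, KRT5 and KRT14 to basal cells, and KRT16 to wounds. KRT1, KRT4, KRT12, KRT13 and KRT79 belong to suprabasal or particular stratified epithelia, and KRT31, KRT33A, KRT34, KRT37 and KRT83 to hair. KRT80, found widely in epithelia, was listed here with the suprabasal and tissue-restricted keratins.

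More keratins stood high in DLD1 with shRNA 51 than with shRNA 49, and so did more of all genes. On it 24 of 46 keratins (52.2%) were at least 2-fold higher, against 13.2% of all genes, and 2 were at least 2-fold lower (4.35%, against 4.55%). With shared ratios left out the count was 20 of 27 (74.1%, against 12.2%). On the DLD1 array with shRNA 49 it was 5 of 46 (10.9%, against 2.93%), namely KRT7, KRT13, KRT23, KRT34 and KRT80, each of them also among the 24. With shared ratios left out these 5 stood among 21 (23.8%, against 3.72%). Leaving out shared ratios kept different genes on the 2 DLD1 arrays. KRT1, KRT5, KRT37 and KRT79, all among the 24, were kept with shRNA 51 but not with shRNA 49. The shares of 74.1% and 23.8% are therefore no check of the counts. The keratin median was 0.11 with shRNA 49 and 1.28 with shRNA 51 in DLD1, where the medians of all genes were -0.02 and 0.04. Without the shRNA 51 array the fit gave 8 DLD1 means at least 2-fold higher in place of 18 (18.6%, against 6.39% of all genes). Without the shRNA 49 array it gave 21 (48.8%, against 12%). The breadth with shRNA 51 thus rests on 1 array, whose ratios over all probes had an interquartile range of 0.829, against 0.558 with shRNA 49 (the RKO array with shRNA 51 had 0.968). The part of this wider spread in the keratin count was not tested.

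**Figure D3:**
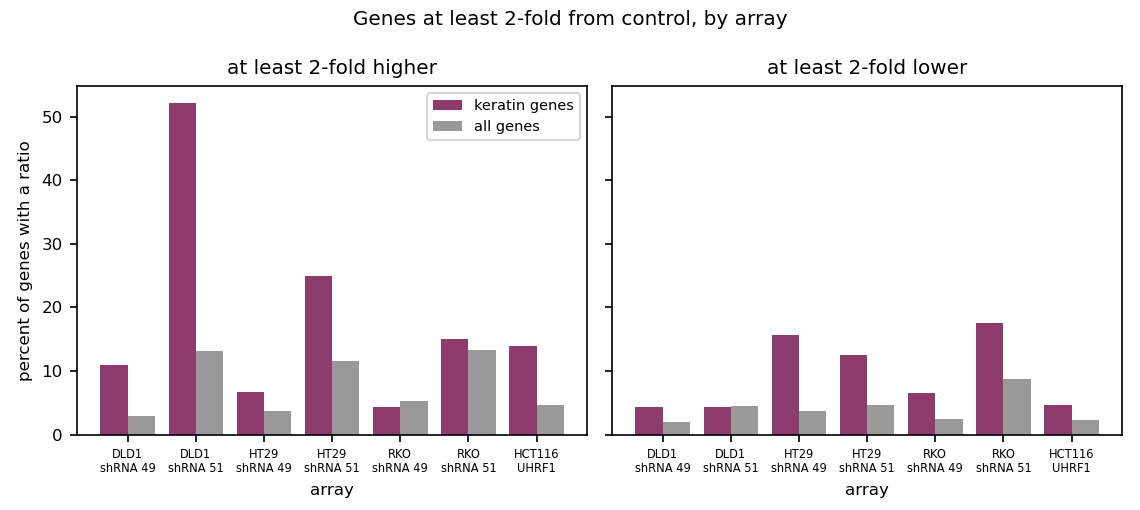
Percentage of genes with a ratio (vertical axis) that were at least 2-fold higher (left) or lower (right) than control on each array, for keratins (purple) and all genes (grey). On the DLD1 array with shRNA 51 the keratin bar reaches 52.2% and that of all genes 13.2%.

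HT29 and RKO cells did not show such a breadth. In HT29 6 keratins (14%, against 5.94% of all genes) had a mean at least 2-fold higher and 4 (9.30%, against 2.43%) at least 2-fold lower. In RKO there were 4 in each direction (9.30%), against 7.73% of all genes higher and 3.2% lower. The 4 higher were KRT1, KRT5, KRT7 and KRT19, of which KRT1 had a single RKO ratio, 0.12 and shared, and owed its fitted RKO mean of 2.25 to the shRNA term. The 4 lower in RKO were KRT8, KRT18, KRT24 and KRT80. By limma 0 keratins were called in either line, where 0.017% of all genes were called higher in HT29 and 0.0454% in RKO, and 0.0% lower in both. At an unadjusted p under 0.05, HT29 had 3 keratins higher (5.46% of all genes) and 5 lower (2.58%), and RKO 3 higher (8.26%) and 3 lower (4.23%). Array by array, the keratins at least 2-fold higher were 3 of 45 and 10 of 40 for HT29 (against 3.63% and 11.5%), and 2 of 46 and 6 of 40 for RKO (against 5.32% and 13.3%). Those at least 2-fold lower were 7 of 45 (15.6%, against 3.63%) and 5 of 40 (12.5%, against 4.68%) for HT29, and 3 of 46 (6.52%, against 2.47%) and 7 of 40 (17.5%, against 8.73%) for RKO. The keratin medians were -0.20 and 0.11 on the HT29 arrays and -0.31 and -0.02 on the RKO arrays. Both DLD1 arrays lay above both RKO arrays for 14 of 40 keratins (35%, against 16.2% of all genes), and the reverse held for 3 (7.5%, against 18.0%). Both DLD1 arrays lay above both HT29 arrays for 17 of 40 (42.5%, against 17.9%), and the reverse held for KRT10 alone (2.5%, against 18.5%). The limma F test between the lines called 0 keratins and 0.0% of all genes, with 8 keratins (18.6%) at an unadjusted p under 0.05, against 6.45% of all genes. The pairwise tests called 0 keratins as well (0.0% of all genes). At an unadjusted p under 0.05, DLD1 lay above HT29 for 8 keratins (2.93% of all genes) and below it for 0 (2.75%), DLD1 lay above RKO for 11 (3.55%) and below it for 0 (3.28%), and HT29 lay above RKO for 2 (3.33%) and below it for 1 (3.61%). The DLD1 mean was at least 2-fold above that of HT29 for 19 keratins (6.99% of all genes) and at least 2-fold below it for 3 (6.07%). Against RKO it was 19 (7.38%) and 0 (7.33%), and for HT29 against RKO 10 (7.2%) and 5 (7.92%).

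**Figure D4:**
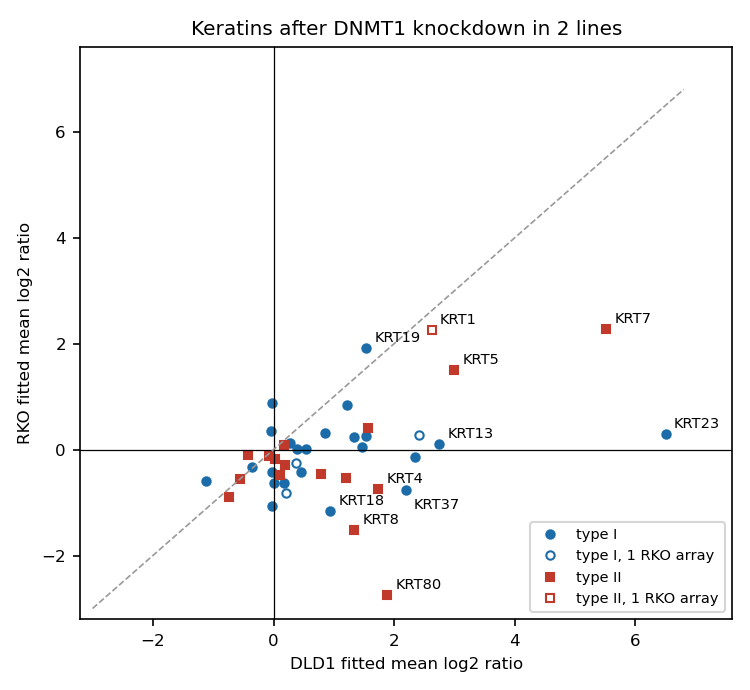
Fitted mean log2 ratio in RKO (vertical axis) against DLD1 (horizontal axis) for the 43 tested keratins; circles are type I, squares type II, open symbols the 4 keratins with a single RKO array (among them KRT1, drawn at 2.25 for RKO from a ratio of 0.12 and the shRNA term), and the dashed line marks equal values. Most points lie below the line, with KRT23 (6.5 and 0.29) and KRT80 (1.88 and -2.75) among the farthest from it.

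The keratins of stratified epithelia gave no call over all lines, and their high ratios lay mainly in DLD1 with shRNA 51. Of the basal keratins, KRT5 had DLD1 ratios of 0.66 and 5.32, HT29 ratios of 0.08 and 0.41, and RKO ratios of 2.41 and 0.58, above 0 on all 6 arrays but with 4 shared ratios (mean 1.58 ± 0.76, adjusted p = 0.497). Its partner KRT14 was also above 0 on all 6 arrays, with DLD1 ratios of 0.39 and 2.04, HT29 ratios of 0.18 and 0.21, RKO ratios of 0.08 and 1.61, and a mean of 0.75 ± 0.26 (adjusted p = 0.362). The probes of KRT14 disagreed by up to 3.26: in DLD1 with shRNA 51 they read 3.67 and 0.41, and in RKO with shRNA 51 3.10 and 0.13. KRT14, KRT5 and KRT7 were the 3 of 36 keratins above 0 on all 6 arrays (8.33%, against 3.81% of all genes), and 0 were below 0 on all 6 (against 3.06%).

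Among suprabasal keratins, KRT1 had DLD1 ratios of -0.42 and 5.66, HT29 ratios of -0.27 and 2.15, and 0.12 for RKO with shRNA 49, with no ratio in RKO with shRNA 51 (fitted mean 1.87 ± 0.53 from 5 arrays, adjusted p = 0.303, where the plain mean of the 5 ratios was 1.45). All of its ratios except that of 5.66 were shared. KRT10, which pairs with KRT1 in the epidermis, ranged from -0.05 to 0.65, with no shared ratio. KRT13, which pairs with KRT4 in the lining of the mouth and oesophagus, had DLD1 ratios of 1.32 and 4.19, HT29 ratios of 2.27 and 0.40, and RKO ratios of 0.32 and -0.12 (mean 1.40 ± 0.62, adjusted p = 0.462). For KRT4 they were 0.96 and 2.51, 0.57 and 0.50, and -0.47 and -1.04, so that both genes were highest in DLD1 with shRNA 51 and lowest in RKO with shRNA 51. The corneal keratin KRT12 had DLD1 ratios of -0.26 and 2.93, HT29 ratios of 1.39 and 3.53, and RKO ratios of -1.58 and 2.04 (3 of the 6 shared; mean 1.34 ± 0.40, adjusted p = 0.299), higher with shRNA 51 in every line. Its partner KRT3 stayed between -0.25 and 0.24, with no shared ratio. The 12 tested members of this group, KRT80 included, had a median of 0.06, where the median of all genes was 0.03.

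KRT16, made in wounded and rapidly dividing epidermis, had DLD1 ratios of 0.86 and 3.84, HT29 ratios of 0.34 and 1.42, and RKO ratios of 0.04 and -0.31 (mean 1.03 ± 0.51, adjusted p = 0.513), with probes up to 1.97 apart. KRT6C, of the same setting, and KRT75, of the hair follicle, averaged -0.07 and -0.58 and held shared ratios on 5 arrays each. KRT14, KRT16 and KRT6C belong to families of near-identical genes, so which copy was measured is uncertain.

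The hair keratins gave no call. The 12 genes of the hair cortex and cuticle had means from -0.38 to 1.25 and a median of 0.18. KRT34 was the highest of them, with DLD1 ratios of 1.01 and 3.80, HT29 ratios of 0.01 and 1.09, -0.69 for RKO with shRNA 49 and no ratio for RKO with shRNA 51 (fitted mean 1.25 ± 0.46 from 5 arrays, adjusted p = 0.402, where the plain mean of the 5 ratios was 1.05). KRT31 (2.98) and KRT37 (4.30) also stood high in DLD1 with shRNA 51 but at 0.10 and 0.09 with shRNA 49. KRT31, KRT34 and KRT37 lie near each other on chromosome 17, at places 15, 14 and 16 of the 26 measured there. KRT33A and KRT33B, at places 12 and 13, stood at 2.04 and 0.43 in DLD1 with shRNA 51, and KRT38, at place 17, at 1.38, the mean of probes that read -0.33 and 3.09, both shared ratios. The next neighbours were not high on that array. KRT40, at place 11, stood at 0.11, and KRT32, KRT35 and KRT36, at places 18, 19 and 20, at 0.38, 0.03 and -0.70. The inner root sheath keratins, which sheathe the growing hair, had a median of -0.30 over 7 tested genes, from -0.72 (KRT26) to 0.40 (KRT27). Each of these 7 held shared ratios on 3 to 5 of the 6 arrays. Type I keratins as a whole had an all-lines median of 0.21 over 26 tested genes with 19 above 0. Type II keratins had a median of -0.12 over 17 with 7 above 0, where 9730 of all 17623 genes lay above 0. The order of the types was reversed in DLD1, whose line means had medians of 0.5 (type I) and 0.78 (type II). Medians of the HT29 means were 0.06 and -0.27, those of the RKO means 0.01 and -0.3 (type I first). The difference between the types was not tested.

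Keratin ratios were higher with shRNA 51 than with shRNA 49 for many members. The median difference was 0.71 over the 43 tested keratins, against 0.10 over all genes. In all 15 keratins (34.9%) were at least 2-fold higher with shRNA 51, against 9.88% of all genes, and 3 (6.98%) at least 2-fold lower, against 3.61%. The widest differences belonged to KRT1 (4.25 ± 1.01, adjusted p = 0.405, without a pair in RKO), KRT23 (3.82 ± 1.01, adjusted p = 0.401) and KRT12 (2.98 ± 0.38, adjusted p = 0.313). By limma 0 keratins passed, with 0.0% of all genes called in either direction. At an unadjusted p under 0.05, 10 keratins lay higher with shRNA 51 (7.57% of all genes) and 1 lower (3.68%). In every line the shRNA 51 array was the higher for 16 of 36 keratins (44.4%, against 22.4% of all genes). KRT7 differed less, with means of 3.83 and 4.74 for shRNA 49 and shRNA 51 (difference 0.91 ± 0.39, adjusted p = 0.472).

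On the UHRF1 array in HCT116 cells, 6 of 43 keratins with a ratio (14%) were at least 2-fold higher, against 4.62% of all genes, and 2 (4.65%) at least 2-fold lower, against 2.32%. The 6 were KRT12 (1.94), KRT34 (1.74), KRT20 (1.72), KRT23 (1.71), KRT27 (1.68) and KRT1 (1.5), and the 2 were KRT35 (-1.46) and KRT73 (-1.31). The ratios of KRT12, KRT27, KRT1 and KRT73 were shared, which leaves KRT34, KRT20 and KRT23 higher and KRT35 lower. KRT13, KRT14 and KRT16 had shared ratios of 0.73, 0.43 and 0.29 there. With 1 array there is no replicate check of these differences.

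Lists of genes around the keratins were read in the same all-lines test, in which 0.38% of all genes were called higher and 0.017% lower, so that a count of 0 or 1 in lists of this size is no result about them. Of 14 tested genes of desmosomes and plakins, which anchor keratin filaments at the cell membrane, 0 passed, with a median of 0.23; the widest means were those of DSC1 (1.31), EPPK1 (1.27) and PLEC (0.73). Of 12 genes of the cornified envelope and keratinocyte differentiation 0 passed, with a median of 0.45. Of these 12, 11 lay above 0, where 9730 of all 17623 genes did, among them TCHH (1.52), SPRR1B (0.87) and IVL (0.77). IVL, FLG and TGM3 held shared ratios on 5 of the 6 DNMT1 arrays, SPRR1A, CNFN and SFN on 0, and the rest on 1 to 4. The median of this list was 1.36 for DLD1 with shRNA 51, and the remaining DNMT1 arrays gave medians from 0.00 to 0.52. Of 9 regulators of keratin genes 0 passed (median -0.08), with KLF5 at -0.70, TFAP2C at 0.57 and GRHL3 at 0.52. Of 15 other intermediate filament genes 1 was called, the neurofilament gene NEFH (3.18 ± 0.28, adjusted p = 0.0138), while VIM and DES averaged 2.65 and 1.29. The keratin-associated proteins of hair, 34 of them tested, had a median of 0.08 and no call. Markers of fibroblasts and endothelium had a median of 0.26 over 9 tested genes, from -0.20 (COL3A1) to 1.68 (LUM), and markers of blood cells a median of 0.13 over 5, from 0.07 (CD14) to 1.10 (CD68), none past the threshold. LUM stood at 3.41 and 5.77 in HT29 but at -0.43 and -1.47 in RKO. Their medians in DLD1 with shRNA 51 were 0.52 each, where the keratin median was 1.28. Their part in the keratin ratios was not tested.

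The sequence before the start of transcription was compared because DNMT1 keeps methyl groups on CG dinucleotides. RefSeq promoter sequences (GRCh38.p14) were found for 31 of the 46 keratins, with 35 starts in all; KRT1, KRT6C, KRT7, KRT13, KRT14, KRT15, KRT16, KRT18, KRT19, KRT23, KRT72, KRT77, KRT80, KRT83 and KRT222 had no entry. The 250 bases before a keratin start held between 0 and 7 CG dinucleotides, with a median of 2. Over all 35116 RefSeq starts the median was 11, and 43.7% of them held 7 or fewer. No CG at all stood before 7 of the 35 keratin starts, and before 6.06% of all starts. The motif TATAAA, read on the sense strand, stood in this window of 18 of the 31 keratin genes (58.1%), against 8.38% of all genes, and in 16 of them the motif began 27 to 31 bases before the start. On either strand it stood in 18 of the 31 as well, against 13.0% of all genes. These motifs do not overlap each other. The median all-lines ratio was 0.06 for the 18 tested keratins with TATAAA and 0.06 for the 12 tested ones without it. Neither median covers KRT7, the keratin called over all lines. KRT1, KRT13, KRT14, KRT16, KRT19 and KRT23, also among the 10 with the widest all-lines means, had no entry either. The CG and TATAAA counts thus describe only the keratins with an entry.

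**Figure D5:**
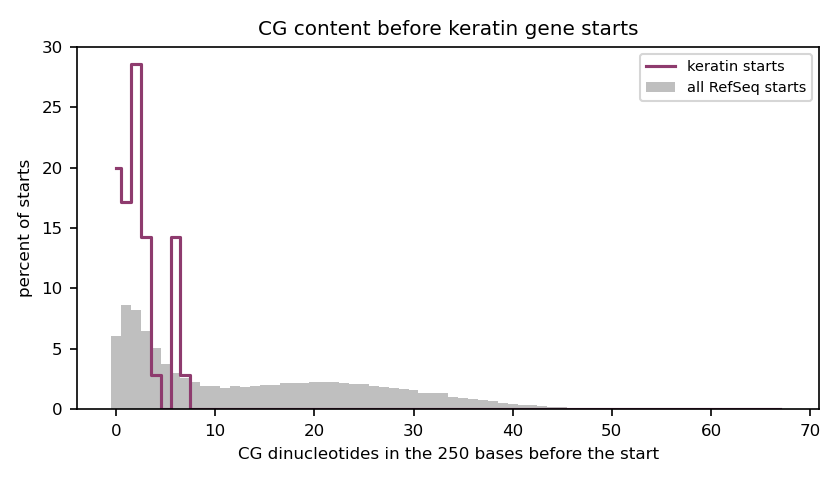
Percentage of starts (vertical axis) by the number of CG dinucleotides in the 250 bases before the start (horizontal axis), for the 35 keratin starts (purple line) and all 35116 RefSeq starts (grey bars). The keratin starts, which belong to the 31 genes with an entry and not to KRT7, lie at 0 to 7, and the median of all starts is 11.

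The sequences of 5 keratins are shown because each belongs to a member described above: KRT8 and KRT20 of simple epithelia, the basal KRT5 with 6 CG, the corneal KRT12, and the hair keratin KRT34 with no CG and a TATAAA motif. Each is the 250 bases before a start listed for the gene, 5′ to 3′ on the sense strand, with CG and TATAAA in capitals. Whether these cells used that start, or another start of the same gene, was not tested.
KRT8, chr12:52926470-52926719, minus strand: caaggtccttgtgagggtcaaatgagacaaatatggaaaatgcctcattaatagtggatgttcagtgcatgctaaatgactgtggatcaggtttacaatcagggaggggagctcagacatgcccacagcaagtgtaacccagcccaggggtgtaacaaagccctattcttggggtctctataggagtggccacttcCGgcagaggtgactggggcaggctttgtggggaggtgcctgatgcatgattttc
KRT20, chr17:40885243-40885492, minus strand: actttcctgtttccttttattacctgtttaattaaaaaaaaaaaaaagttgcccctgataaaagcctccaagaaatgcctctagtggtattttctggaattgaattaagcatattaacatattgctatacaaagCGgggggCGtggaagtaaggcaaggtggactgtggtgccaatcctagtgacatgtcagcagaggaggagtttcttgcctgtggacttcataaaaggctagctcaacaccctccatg
KRT5, chr12:52520395-52520644, minus strand: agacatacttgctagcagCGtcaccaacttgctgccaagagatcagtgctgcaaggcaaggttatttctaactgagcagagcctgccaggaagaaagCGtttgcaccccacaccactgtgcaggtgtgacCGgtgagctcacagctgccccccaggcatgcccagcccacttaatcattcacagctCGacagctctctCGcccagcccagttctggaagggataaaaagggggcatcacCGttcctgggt
KRT12, chr17:40867224-40867473, minus strand: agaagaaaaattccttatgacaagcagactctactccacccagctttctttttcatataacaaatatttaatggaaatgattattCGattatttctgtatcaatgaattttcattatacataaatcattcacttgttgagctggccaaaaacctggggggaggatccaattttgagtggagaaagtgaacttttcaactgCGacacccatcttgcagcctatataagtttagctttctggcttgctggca
KRT34, chr17:41382307-41382556, minus strand: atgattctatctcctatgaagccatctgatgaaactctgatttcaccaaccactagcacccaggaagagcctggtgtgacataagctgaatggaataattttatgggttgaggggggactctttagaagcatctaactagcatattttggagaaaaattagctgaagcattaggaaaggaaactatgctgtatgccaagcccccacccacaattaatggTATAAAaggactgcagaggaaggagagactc

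KRT34, the 1 of these 5 genes without CG in this window, stood at 3.80 in DLD1 with shRNA 51 and at 1.74 on the UHRF1 array. KRT5, with 6 CG, stood at 5.32 and -0.35 on the same arrays, and KRT8, with 1 before its listed start, at 1.99 and -0.75. KRT12 and KRT20, with 2 CG each, stood there at 2.93 and 1.94 and at 0.22 and 1.72. The ratios of these genes on the other arrays are given above, and whether ratios go with CG counts was not tested. Other keratins without CG before their start were not as high as KRT34 in DLD1 with shRNA 51. KRT10, KRT27, KRT33B, KRT35 and KRT73 stood there at -0.03, 0.93, 0.43, 0.03 and -1.42. KRT85, without CG at 1 of its starts, stood at -0.13. A CG count describes the letters alone, and no methylation was measured on these arrays.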

How the data were processed

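Total RNA of 7 samples was measured on 2-colour arrays, labelled after Agilent's protocol per the labels. Per the labels each sample is 1 array with knockdown RNA in 1 dye and control RNA in the other. The authors deposited a single log ratio for each probe of an array, and the range of the values was the ground for reading them as log2 (array medians between -0.0243 and 0.0200). The submitters' processing notes name limma. Log base, background correction, normalization and direction were not stated in those notes or in the labels. Of 41000 probes, 29341 had 1 gene symbol in GEO's platform annotation, 33 had several and 11626 none listed, and all 46 keratins matched RefSeq (GRCh38.p14) by Entrez identifier under the same symbol. Between 205 and 5075 probes per array were blank. Dim probes could not be filtered, since signal strengths were not used here, and the number of arrays limits the precision.

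Ratios were averaged per symbol and genes with a value on at least 5 of 6 DNMT1 arrays were fitted with limma 3.58.1 (R 4.3.3, with version 1.17.8 of the data.table package) over the whole table, with p-values adjusted by Benjamini and Hochberg and a threshold of 0.05. The all-lines mean was tested against 0 adjusting for shRNA and treating cell line as a random block (correlation 0.165). Line means, the F test, pairwise differences and the shRNA difference were taken from a model holding a term for every line and one for shRNA. The F test is approximate where a ratio is missing. The shRNA number is a label shared by the lines and no replicate number, and the covariate stands for both shRNA and dye. The fits were also run on simulated data in which the arrays of a line were drawn independently, so that run could not check the random block. Its outcome is not used here. The members, lists and settings were chosen with earlier results of these data known. Values on all arrays are given for keratins past a test, 6 simple epithelial keratins, the 10 with the widest all-lines means and the 4 with the widest ratios per line and on the UHRF1 array, which came to 14 genes; other keratins named for their pairing, their place in the gene cluster or their sequence, and those listed as at least 2-fold changed, were chosen after their values were seen. The normalization between arrays, the centring, the shared ratios, the average over probes, the number of arrays required, the prior, the blocks and leaving out arrays were varied.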

Additional observations from a re-analysis of the deposited data

Results flagged for a closer look

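Among the 14 keratins with values given on all arrays, 3 had pairs of lines in which all arrays of 1 line lay above 0 and all arrays of the other below it. KRT8 stood at 0.69 and 1.99 in DLD1 and at -1.10 and -1.95 in RKO, a difference of 2.86 on the log2 scale. KRT80 stood at 1.44 and 2.31 in DLD1 and at -0.59 and -4.91 in RKO, a difference of 4.63. KRT19 stood at 0.60 and 2.46 in DLD1 and at -0.80 and -0.41 in HT29, a difference of 2.13. None of the 3 differences passed the limma test of the difference (adjusted p of 0.710, 0.710 and 0.847). Among all genes, 5.33% had both DLD1 arrays above 0 with both RKO arrays below it. For DLD1 above 0 and HT29 below it the share was 6.33%. Of 40 keratins, 5 (12.5%) did so in each of these comparisons. HT29 above 0 with DLD1 below it held for 7.22% of all genes, and with RKO below it for 5.81%. RKO above 0 with DLD1 below it held for 5.91%, and with HT29 below it for 5.47%. In each of these directions 1 keratin did so. The 14 were picked in part for wide ratios, so 3 of 14 is not comparable with these shares.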

How the results depend on the processing

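KRT7 was the 1 keratin called higher over all lines, and the count was 0 without the shRNA covariate (the shRNA being the number that could pair arrays across lines as a replicate block), after quantile or scale normalization, with a robust prior, with the arrays of a line averaged, and with the shRNA 49 or the shRNA 51 arrays alone. Leaving out 1 array gave 0 to 1 keratins; the 1 called without HT29 with shRNA 51 was KRT1 (2.75, adjusted p = 0.0299), whose remaining ratios were -0.42, 5.66, -0.27 and 0.12, with 1 shRNA 51 array and 3 shared ratios among them, so that the value leans on the shRNA term. No keratin was called lower under any setting run. Over all genes 67 were called higher and 3 lower. Without the shRNA covariate the counts were 10 and 0, after quantile normalization 28 and 0, with the arrays of a line averaged 7 and 0, with shRNA 49 alone 5 and 0, and with shRNA 51 alone 13 and 0. The count lower was 1 after scale normalization and with a robust prior, and 7 without a block for the line. Leaving out 1 array gave 8 to 168 higher and 0 to 38 lower.

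Within DLD1, HT29 and RKO 0 keratins and 4, 3 and 8 genes in all were called. KRT7 was the 1 keratin called in DLD1 and in HT29 after quantile normalization, after scale normalization, with shared ratios left out and with all 6 arrays required, and the 1 called in RKO with shared ratios left out. The counts over all genes were 0 in each line without the shRNA covariate, 36, 31 and 24 after quantile normalization, 15, 24 and 4 after scale normalization, 55, 52 and 189 with shared ratios left out, and 14, 14 and 34 with all 6 arrays required. Leaving out 1 array gave 0 to 14 in DLD1 (0 to 1 keratins), 0 in HT29 and 0 to 45 in RKO. Without shared ratios the pairwise tests called 8 genes and the shRNA difference 3, none of them a keratin, and 12 keratins could be tested.

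The 18 DLD1 means at least 2-fold higher (41.9%, against 6.49% of all genes) became 7 of 12 testable without shared ratios (58.3%, against 4.78%) and 8 to 21 with 1 array left out (18.6% against 6.39% without DLD1 with shRNA 51, 48.8% against 12% without DLD1 with shRNA 49). On the UHRF1 array the 6 higher and 2 lower of 43 became 3 of 17 (17.6%, against 3.23% of all genes) and 1 of 17 (5.88%, against 1.63%) without shared ratios. Which keratins remain without shared ratios differs from array to array, so the shares without them are no check of the counts. Means turned sign with shRNA 49 alone for KRT1 (-0.19), KRT12 (-0.15), KRT19 (-0.17) and KRT80 (0.43), with shRNA 51 alone for KRT8 (0.04) and KRT18 (0.24), and after quantile normalization for KRT80 (0.08). Leaving out 1 array moved KRT8 between -0.62 and 0.29, KRT18 between -0.62 and 0.19 and KRT80 between -1.10 and 0.61. Without DLD1 with shRNA 51 the means were 0.99 for KRT1, 0.76 for KRT5, 0.72 for KRT13, 0.49 for KRT16 and 0.60 for KRT34, and without RKO with shRNA 51 that of KRT19 was 0.42. Without HT29 with shRNA 51 KRT19 averaged 1.54 and KRT34 1.89. The cause was not tested. Of the genes in this paragraph, KRT1 alone was called under any setting run, without HT29 with shRNA 51 as given above.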
